A study of Mus musculus with 4 samples.

Results

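The 10 genes described here are the core of the p53 pathway: the tumor suppressor Trp53 and its family member Trp73, the inhibitors Mdm2 and Mdm4, the upstream locus Cdkn2a, and the targets Cdkn1a, Ccng1, Sesn2, Zmat3 and Trp53inp1. They were chosen by symbol, 10 of the 38713 genes with a value, and 9 of them were among the 12998 genes tested. RNA was sequenced in 4 cultured cell lines, each grown from a separate mammary tumor of a parous C57BL/6 mouse and each giving 1 library. The JNK_WT lines (replicates 1 and 2) came from Wap-Cre Trp53 LoxP/LoxP mice and are labelled p53-/-. The JNK_KO lines (replicates 1 and 3) came from Wap-Cre mice with Trp53 LoxP/LoxP that were also LoxP/LoxP for both Mapk8 and Mapk9, and are labelled p53-/- JNK-/-, JNK1 and JNK2 being the stress-activated kinases encoded by Mapk8 and Mapk9. Trp53 was therefore targeted in both groups, and the comparison asks whether the remaining pathway differed when JNK was also lost. The Wap promoter drives Cre recombinase in the mammary epithelium of lactating mice, and no library with intact Trp53 was analysed here, so no level below is set against that of normal cells.

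The p53 protein is a transcription factor that is held at low levels by Mdm2, the ubiquitin ligase that marks it for destruction, and by the related inhibitor Mdm4. Stress signals release p53, and the Arf protein made from Cdkn2a does so by binding Mdm2. Active p53 then induces genes that stop the cell cycle, repair DNA, tune metabolism or start cell death, and it induces Mdm2 itself, which closes the loop.

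The promoters of the members were searched for the sequence pattern that p53 binds. RefSeq gave 12 promoters for 8 of the 10 genes on GRCm38.p6, each a window from 250 bases before to 50 bases after a transcription start, and none was matched for Zmat3 and Trp53inp1. The 250 upstream bases are shown for the 4 genes whose window held a match to the p53 half-site consensus, searched by its usual degenerate pattern on both strands. Capitals mark these half-site matches. The upstream Cdkn1a start is on the plus strand (chr17:29090729-29090978), Ccng1 on the minus strand (chr11:40755287-40755536), Mdm2 on the minus strand (chr10:117710759-117711008) and Trp53 on the plus strand (chr11:69580109-69580358).
Cdkn1a: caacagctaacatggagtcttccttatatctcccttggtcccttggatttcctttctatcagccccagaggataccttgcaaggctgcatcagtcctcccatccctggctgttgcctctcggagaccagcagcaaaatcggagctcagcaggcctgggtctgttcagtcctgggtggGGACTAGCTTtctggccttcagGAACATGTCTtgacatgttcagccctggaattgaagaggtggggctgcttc
Ccng1: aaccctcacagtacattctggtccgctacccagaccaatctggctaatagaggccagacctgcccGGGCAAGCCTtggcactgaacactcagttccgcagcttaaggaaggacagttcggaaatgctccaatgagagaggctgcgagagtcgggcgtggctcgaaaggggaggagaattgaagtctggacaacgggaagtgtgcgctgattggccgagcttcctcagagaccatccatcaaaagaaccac
Mdm2: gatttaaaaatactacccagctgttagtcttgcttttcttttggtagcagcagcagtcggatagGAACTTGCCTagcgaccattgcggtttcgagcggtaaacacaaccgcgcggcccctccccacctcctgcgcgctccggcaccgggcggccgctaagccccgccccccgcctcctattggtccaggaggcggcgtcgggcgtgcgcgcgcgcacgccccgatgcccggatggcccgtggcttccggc
Trp53: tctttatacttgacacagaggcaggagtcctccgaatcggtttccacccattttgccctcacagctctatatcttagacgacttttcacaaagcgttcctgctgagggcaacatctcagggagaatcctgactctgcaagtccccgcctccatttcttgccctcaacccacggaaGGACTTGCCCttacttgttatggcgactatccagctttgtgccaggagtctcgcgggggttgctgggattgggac
A half-site was present in 8.36% of 32851 mouse promoters of this length. The Cdkn1a window, the one that lies before its upstream start, held a pair of half-sites at positions -73 and -51 relative to the start. Together they matched the search pattern for a full p53 site, counted at a spacer of up to 13 bases, which 0.07% of promoters held. The bases directly after the -51 half-site, tgacatgttc, miss the half-site pattern at 1 base and were not counted. A pair made with them would not show in this search, and which pair p53 binds was not tested. The half-sites of the full match are the same matches counted as half-sites. Ccng1 had 1 half-site at -185, Mdm2 had 1 at -186 and Trp53 had 1 at -75. The windows of Mdm4, Cdkn2a, Sesn2 and Trp73 and the other Cdkn1a window had no half-site match, which says only that the pattern is not in these windows. A match is a description of the letters and not a binding measurement.

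Levels are given as FPKM, fragments scaled by transcript length and by the mapped total of the library, so that genes of different length can be compared. Differences are JNK_KO minus JNK_WT on log2(FPKM + 1), with the standard error and the adjusted p-value of limma over 12998 genes. Calling a gene required an absolute difference over 0.75 and, after adjustment, a p-value under 0.05. No gene was called in the whole comparison (0%), while 992 genes (7.63%) had an unadjusted p-value under 0.05, and none of the 9 tested members was called or had such a p-value. Nothing beyond separate tumors defines the replicates, and 2 lines against 2 allow an exact permutation p-value no smaller than 0.333.

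**Figure D1:**
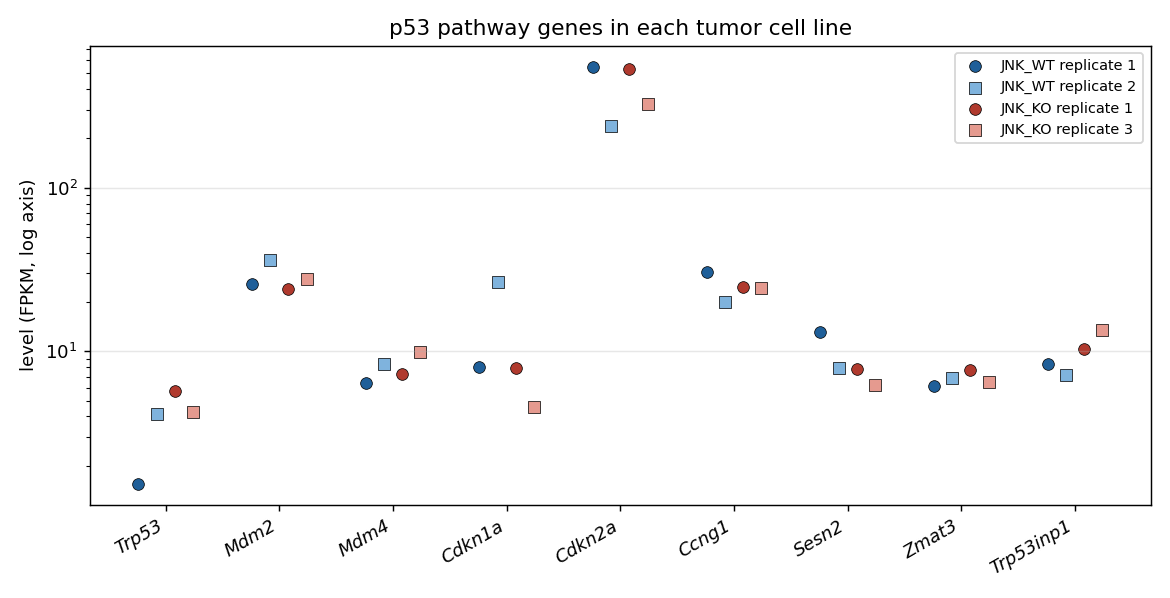
Level of the 9 tested genes (FPKM, log axis) in each of the 4 tumor cell lines, 1 point per library, circles for replicate 1 and squares for replicates 2 and 3. Cdkn2a stands above the others at 239 to 549 FPKM, Trp53 lies lowest at 1.55 to 5.72 FPKM, and the widest spread is that of Cdkn1a, with JNK_WT replicate 2 at 26.6 FPKM.

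The levels of the members covered a wide range, with Trp73 near 0 and Cdkn2a far above the rest. Cdkn2a was the most abundant, at 394 ± 219 FPKM in JNK_WT and 427 ± 146 FPKM in JNK_KO lines (mean ± SD, n = 2 each). Mdm2 and Ccng1 followed at 19.9 to 36.0 FPKM, their ranges over the libraries overlapping. Sesn2, Trp53inp1, Mdm4, Zmat3 and, except in JNK_WT replicate 2, Cdkn1a lay between 4.58 and 13.5 FPKM, where each gene's range over the libraries overlapped that of its neighbors in the order. Trp53 was the lowest of the tested members in each library, and Trp73 was lower still. All 9 tested members had at least 1 FPKM in all 4 libraries.

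Trp53 RNA was still measured in every line, and its level was lowest in JNK_WT replicate 1. Trp53 (chromosome 11, 69580359 to 69591873, plus strand, mm10) measured 1.55 FPKM in JNK_WT replicate 1 and 4.15 FPKM in JNK_WT replicate 2, beside 5.72 FPKM in JNK_KO replicate 1 and 4.28 FPKM in JNK_KO replicate 3. The highest line had 3.68 times the level of JNK_WT replicate 1, while the other lines lay close together. In no library did Trp53 lie above the percentile of 28.7 among tested genes. Its difference was 0.72 (SE 0.46, limma adjusted p-value 0.886). The groups did not overlap, but the difference was smaller than the 1.01 between the JNK_WT lines on the same scale, and without JNK_WT replicate 1 it was 0.21.

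The floxed Trp53 allele is known to carry its LoxP sites around exons 2 to 10, so deletion leaves the first and the last exon. In the annotation, exons 2 to 10 hold 1091 bases, and the 2 exons left hold 680 to 776 bases, or 38.4% to 41.6% of the 4 coding transcripts. The deposited table has 1 value per gene, so reads inside and outside the deleted exons cannot be told apart, and the value checks no deletion. The worth of a single read was estimated from low values within a fixed window, which bounds it. The Trp53 levels then correspond to roughly 124 to 131 reads in JNK_WT replicate 1. In the other lines they correspond to 389 to 465 reads, the ranges covering transcript lengths. The lowest Trp53 value thus rested on roughly 124 reads or more by this estimate. Wrap53 lies 104 bases from Trp53 on the opposite strand and shares no exon base with it. Wrap53 was at 8.57 and 10.2 FPKM in JNK_WT and 4.36 and 8.34 FPKM in JNK_KO lines.

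Trp73, whose p73 protein binds p53 sites and can induce the same targets, was close to absent. Its level was 0.00383 FPKM in JNK_WT replicate 1 and 0.542 FPKM in JNK_WT replicate 2, and it was listed at 0 in both JNK_KO lines. The value of JNK_WT replicate 2 corresponds to roughly 55 to 145 reads and that of JNK_WT replicate 1 to at most 0.87 of a read by the same estimate, so 1 line carried nearly all the signal. Trp73 (chromosome 4, 154056253 to 154140208, minus strand) shares 280 exon bases with the antisense gene Trp73os, and the libraries were not stated to keep strand. It did not reach the minimum for testing.

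The inhibitors Mdm2 and Mdm4 were expressed in every line, the highest line being at most 1.54 times the lowest for either gene. Mdm2 (chromosome 10, 117688875 to 117710758, minus strand) was at 25.6 and 36.0 FPKM in JNK_WT and 24.1 and 27.5 FPKM in JNK_KO lines, a difference of -0.23 (SE 0.28, limma adjusted p-value 0.987). Only JNK_WT replicate 2 stood above the rest, the groups overlapped, and the highest line was 1.49 times the lowest. Mdm2 lay between the 66.4th and 76.4th percentile of tested genes in lines targeted for Trp53. Whether the Mdm2 window shown above belongs to the start that p53 induces was not tested. The 1 value per gene does not separate transcripts from different starts.

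Mdm4 (chromosome 1, 132959484 to 133030561, minus strand), which binds the activation domain of p53 without a strong ligase activity of its own, was at 6.38 and 8.42 FPKM in JNK_WT and 7.24 and 9.85 FPKM in JNK_KO lines. Its groups also overlapped, with a difference of 0.18 (SE 0.33, limma adjusted p-value 0.999). The level of Mdm2 was 4.02 and 4.28 times that of Mdm4 in JNK_WT lines and 3.33 and 2.79 times in JNK_KO lines. No test of this ratio was run.

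Cdkn2a encodes p16Ink4a, an inhibitor of Cdk4 and Cdk6, and from a separate first exon Arf, the inhibitor of Mdm2. Cdkn2a (chromosome 4, 89274471 to 89294653, minus strand) was at 549 and 239 FPKM in JNK_WT and at 530 and 323 FPKM in JNK_KO lines. It ranked between 126 and 356 from the top of 12998 tested genes. The high lines were replicate 1 of each genotype, the groups overlapped, and the difference was 0.19 (SE 0.51, limma adjusted p-value 0.999). Leaving out 1 library moved the difference between -0.41, without JNK_WT replicate 2, and 0.79, without JNK_WT replicate 1, so its sign depended on the lines included. The annotation has 2 coding transcripts with separate starts, and 1 FPKM value sums both, so p16Ink4a and Arf cannot be told apart here.

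Cdkn2b, the adjacent gene for the p15Ink4b inhibitor, lies 11646 bases from Cdkn2a and was ordered nearly alike. Its level was 101 and 57.7 FPKM in JNK_WT and 102 and 69.5 FPKM in JNK_KO lines, so the lines high in Cdkn2a were also high in Cdkn2b. The Cdkn2a level was 4.14 to 5.43 times that of Cdkn2b in the 4 libraries. Mtap, a purine salvage enzyme 93390 bases away that is often lost together with Cdkn2a in tumors, was at 48.6 and 62.9 FPKM in JNK_WT and 86.5 and 65.7 FPKM in JNK_KO lines. It did not follow that order, and all 3 genes of the locus were expressed in every line.

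**Figure D2:**
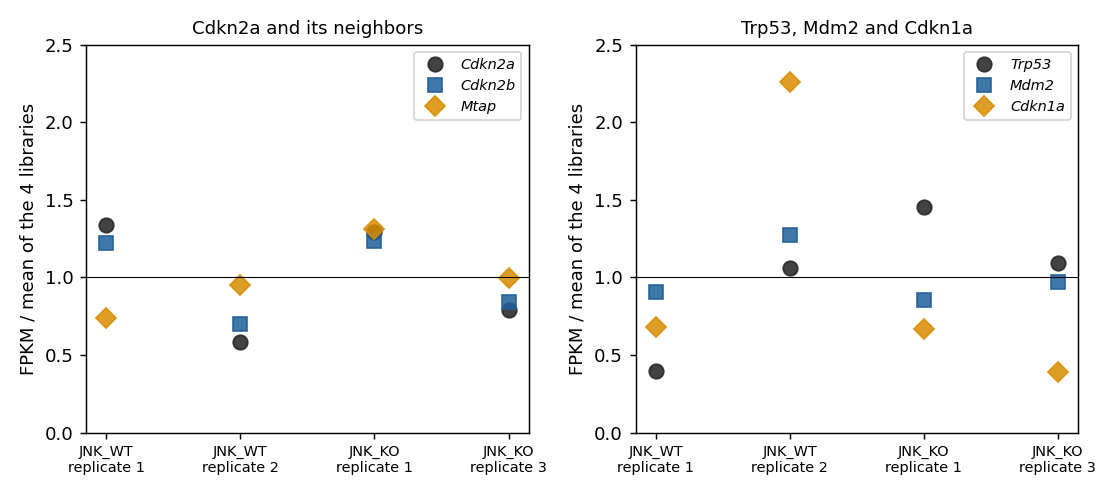
FPKM of each gene divided by its mean over the 4 libraries, 1 point per library, for Cdkn2a with its neighbors Cdkn2b and Mtap (left) and for Trp53, Mdm2 and Cdkn1a (right). Cdkn2a and Cdkn2b are above their mean in replicate 1 of each genotype, and Cdkn1a is above its mean in JNK_WT replicate 2 alone, at 26.6 FPKM.

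Cdkn1a, which encodes the p21 inhibitor of cyclin-dependent kinases and whose upstream window matched the full-site pattern, had the largest difference of the members. Cdkn1a (plus strand of chromosome 17, 29090976 to 29100727) had 7.997 and 26.6 FPKM in JNK_WT and at 7.85 and 4.58 FPKM in JNK_KO lines. JNK_WT replicate 2 was 5.80 times the lowest line, while JNK_WT replicate 1 and JNK_KO replicate 1 were nearly equal. The groups did not overlap by this narrow margin, and the difference was -1.16 (SE 0.64, limma adjusted p-value 0.836). It was smaller than the 1.62 between the JNK_WT lines, and without JNK_WT replicate 2 it was -0.36. Cdkn1a shares 273 exon bases with an unnamed minus-strand gene model, so some reads could belong there.

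The 3 basal epithelial markers differed between lines without a shared order. Krt5 was at 61.9 FPKM in JNK_WT replicate 2, the line high in Cdkn1a, and at no more than 0.205 FPKM in the others. Krt14 was at 443 FPKM in that line, but also at 313 FPKM in JNK_KO replicate 3, the line lowest in Cdkn1a, and at 7.34 and 26.7 FPKM in the replicate 1 lines of JNK_WT and JNK_KO. Acta2 was at 3.19 FPKM in JNK_WT replicate 2 and was highest in JNK_KO replicate 3, at 28.97 FPKM. Their part in the Cdkn1a and Cdkn2a levels was not tested. In bulk lines a smaller share of cells expressing a gene and less RNA per cell cannot be told apart.

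Of the remaining targets, Ccng1 and Zmat3 varied least. Ccng1, the cyclin G1 gene that feeds back on p53 through Mdm2, was at 30.5 and 19.9 FPKM in JNK_WT and 24.6 and 24.4 FPKM in JNK_KO lines. The JNK_KO lines fell between the JNK_WT lines, and the difference was -0.01 (SE 0.30, limma adjusted p-value 0.999). Zmat3, an RNA-binding protein gene, was at 6.16 and 6.84 FPKM in JNK_WT and 7.65 and 6.46 FPKM in JNK_KO lines, a difference of 0.10 (SE 0.29, limma adjusted p-value 0.999). It was the steadiest member, the highest line being 1.24 times the lowest.

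Sesn2, a stress-induced inhibitor of mTORC1, was at 13.04 and 7.96 FPKM in JNK_WT and 7.80 and 6.20 FPKM in JNK_KO lines. Its groups did not overlap, but JNK_WT replicate 2 and JNK_KO replicate 1 were nearly equal. The difference was -0.50 (SE 0.36, limma adjusted p-value 0.930) and was -0.17 without JNK_WT replicate 1. Trp53inp1, a gene of p53-dependent cell death and autophagy, was at 8.39 and 7.13 FPKM in JNK_WT and 10.4 and 13.5 FPKM in JNK_KO lines. Both JNK_KO lines were above both JNK_WT lines, with a difference of 0.56 (SE 0.30, limma adjusted p-value 0.829). It was the 1 member of 9 (11.1%) whose difference between genotypes exceeded the difference within both genotypes, a share that was 23.6% over all genes tested.

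**Figure D3:**
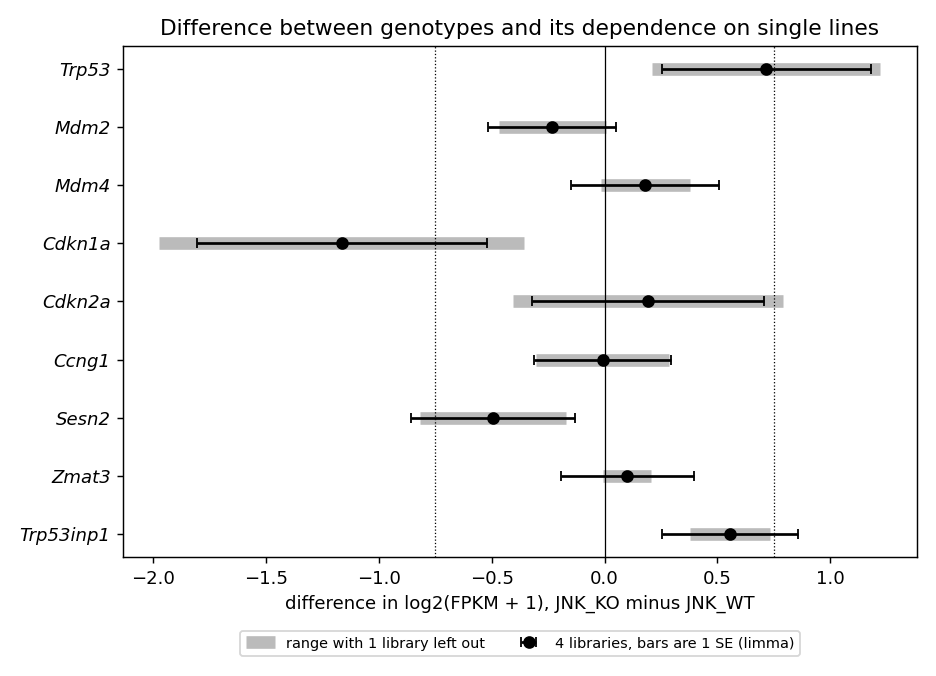
Difference between genotypes in log2(FPKM + 1), JNK_KO minus JNK_WT, for the 9 tested genes. Points are the limma estimates from 4 libraries with bars of 1 SE, gray bands span the estimates with 1 library left out, and dotted lines mark 0.75 in each direction. Only the Cdkn1a point lies beyond a dotted line, at -1.16, and its band reaches -0.36.

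Counted together, the members stood close to the background. The groups did not overlap for 4 of 9 tested members, 2 higher and 2 lower in JNK_KO lines, beside 35.0% of all genes tested. The difference exceeded 0.75 for 1 of 9, Cdkn1a, beside 15.7% of all genes. The median difference of the members was 0.10 and that of all tested genes was 0.01. Over the members, the median absolute difference was 0.23 between the groups, while it was 0.59 within JNK_WT and 0.35 within JNK_KO lines. Over all tested genes these medians were 0.27, 0.43 and 0.33.

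The other targets of p53 lay on both sides of 0, and more of those past 0.75 were lower than higher in JNK_KO lines. Of 47 further targets, 45 were tested and none was called. Their groups did not overlap for 13 (28.9%, beside 35.0% of all tested genes), with 5 higher and 8 lower in JNK_KO lines. Over all genes these directions held 18.3% and 16.7%. The difference exceeded 0.75 for 11 (24.4%, beside 15.7% of all tested genes), 3 of them upward and 8 downward, where all genes had 9.25% upward and 6.43% downward. Their median difference was 0.05. Each library held the highest value for 8 to 14 of the 45 targets (17.8% to 31.1%, beside 21.7% to 26.9% of all tested genes). No single line was thus high across the pathway.

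Of the 9 tested targets in cell cycle arrest and feedback, 2 had lower values in both JNK_KO lines and 0 had higher values, a share without overlap of 22.2%, below the 35.0% of all tested genes. Gadd45a, a growth arrest gene induced by DNA damage, was at 120 and 94.3 FPKM in JNK_WT and 23.7 and 36.1 FPKM in JNK_KO lines, a difference of -1.83 (SE 0.31, limma adjusted p-value 0.256). Sfn, encoding the epithelial 14-3-3 sigma protein that holds cells in G2, was at 29.4 and 96.4 FPKM in JNK_WT and 9.48 and 13.2 FPKM in JNK_KO lines, a difference of -2.16 (SE 0.62, limma adjusted p-value 0.498). Sfn shared with Cdkn1a its highest value in JNK_WT replicate 2, whereas Gadd45a was highest in JNK_WT replicate 1. Pml, the scaffold of nuclear bodies, followed with 0.60 and overlapping groups, and was at 0.15 without JNK_WT replicate 2. The Sfn difference was -1.32 without that line. Across the alternative settings the difference of Gadd45a lay between -2.12 and -1.53 and that of Sfn between -3.00 and -1.32, with limma adjusted p-values from 0.254 for Gadd45a and 0.335 for Sfn.

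Among 16 tested targets in cell death, 4 were higher and 3 lower in both JNK_KO lines, together 43.8% beside 35.0% of all tested genes. Fas, the death receptor, was at 0.478 and 0.810 FPKM in JNK_WT and 19.4 and 20.96 FPKM in JNK_KO lines. This was the widest gap of the 45 targets, 3.69 (SE 0.31, limma adjusted p-value 0.0935), and the adjusted value ranged from 0.059 to 0.642 across the alternatives. Pmaip1, encoding the BH3-only protein Noxa, was at 9.28 and 0.744 FPKM in JNK_WT and 13.4 and 19.7 FPKM in JNK_KO lines, a difference of 2.03 that rested on JNK_WT replicate 2 and was 0.75 without it. Shisa5, an endoplasmic reticulum protein linked to apoptosis, was at 83.7 and 70.0 FPKM in JNK_WT and 187 and 180 FPKM in JNK_KO lines, a difference of 1.25 (SE 0.23, limma adjusted p-value 0.281). In the other direction past 0.75 were Bid, a BH3-only link between death receptors and mitochondria (-1.06), Siva1 (-0.86) and Phlda3, an inhibitor of Akt (-0.76). The groups of Bid and Siva1 did not overlap and those of Phlda3 did. Without JNK_WT replicate 1, Bid was at -0.56 and Siva1 at -0.59, and without JNK_WT replicate 2, Phlda3 was at 0.01. Bax, the mitochondrial effector of apoptosis, was at 37.98 to 50.7 FPKM with overlapping groups.

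The 6 DNA repair targets had a median difference of -0.02 and none exceeded 0.75. Their widest differences were -0.60 for Xpc, a damage sensor of nucleotide excision repair, -0.33 for Rrm2b, a subunit of ribonucleotide reductase, and 0.30 for Polh, a bypass polymerase. Of 14 metabolism and growth targets, 2 were lower and 0 higher in both JNK_KO lines, 14.3% beside 35.0% of all tested genes, with a median of -0.27. Ak1, an adenylate kinase, was at 8.85 and 5.64 FPKM in JNK_WT and 3.27 and 1.73 FPKM in JNK_KO lines (-1.24, limma adjusted p-value 0.567). Tigar, a regulator of glycolysis, was at 14.1 and 12.6 FPKM in JNK_WT and 7.08 and 5.45 FPKM in JNK_KO lines (-0.99, limma adjusted p-value 0.519). Igfbp3, which binds insulin-like growth factors, differed by -1.03 with overlapping groups, since JNK_WT replicate 2 was at 65.7 FPKM and the others at 2.65 to 12.4 FPKM. Without that line the Igfbp3 difference turned to 1.06, and it was -3.13 without JNK_WT replicate 1.

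**Figure D4:**
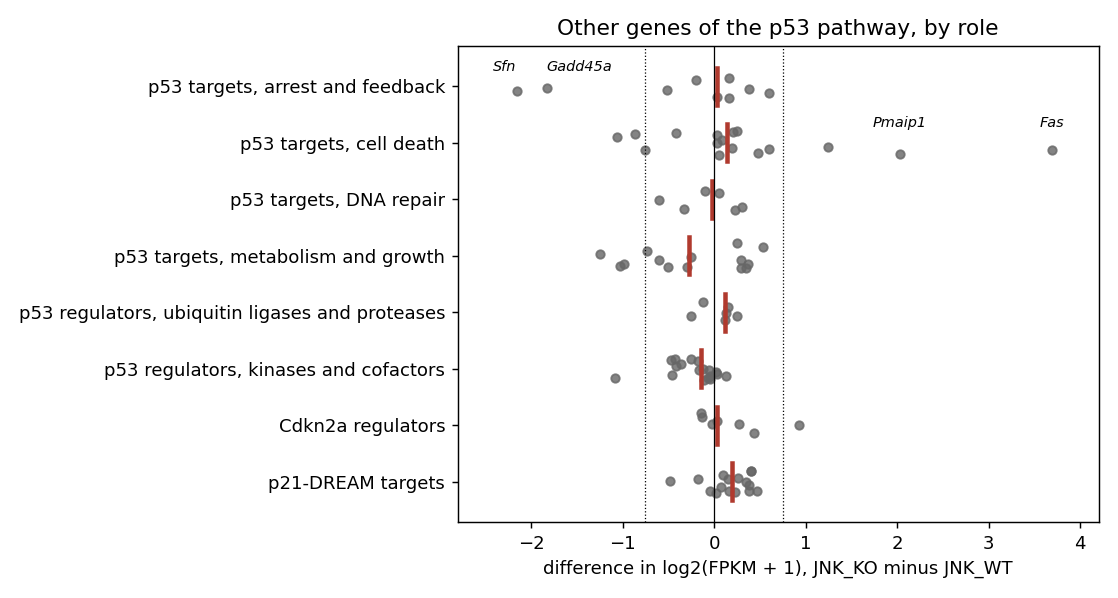
Difference in log2(FPKM + 1), JNK_KO minus JNK_WT, of each tested gene in 8 role lists of the p53 pathway, 1 point per gene with vertical jitter that has no meaning. Red bars are list medians, dotted lines mark 0.75 in each direction, and genes past 1.5 are named. Medians lie between -0.27 and 0.19, while Fas stands at 3.69 and Sfn at -2.16.

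The regulators of p53 had a median absolute difference of 0.14, beside 0.37 for the further targets and 0.27 for all tested genes. Of 24 tested regulators, 1 had a difference over 0.75 (4.17%, beside 15.7% of all tested genes) and the median was -0.11. The groups did not overlap for 7 (29.2%, beside 35.0%), with 1 higher and 6 lower in JNK_KO lines. Among ubiquitin ligases and proteases, the widest were Rchy1 (-0.26), the ligase Pirh2, and the deubiquitinases Usp2 (0.25) and Usp7 (0.15). Leaving out 1 library turned the direction of Rchy1 (0.17 without JNK_WT replicate 2) and of Usp2 (-0.50 without JNK_KO replicate 3 and -0.16 without JNK_WT replicate 1). Among kinases and cofactors, Ppp1r13b, which encodes the p53 cofactor ASPP1, was at 8.17 and 4.70 FPKM in JNK_WT and 1.61 and 3.48 FPKM in JNK_KO lines (-1.08, limma adjusted p-value 0.707). Without JNK_KO replicate 1 it was -0.69 and without JNK_WT replicate 1 it was -0.74, both under the threshold. The kinases Hipk2 (-0.47) and Chek2 (-0.46) followed.

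Of 7 tested regulators of Cdkn2a, 1 exceeded 0.75 (14.3%, beside 15.7% of all tested genes). Cbx7, a Polycomb subunit that represses the Cdkn2a locus, was at 12.3 and 19.3 FPKM in JNK_WT and 27.1 and 33.7 FPKM in JNK_KO lines (0.92, limma adjusted p-value 0.626), while Cdkn2a itself overlapped between the groups. Without JNK_WT replicate 1 the Cbx7 difference was 0.62. The repressor Tbx3 differed by 0.43 and the activator E2f1 by 0.27, both with overlapping groups, and Tbx3 turned to -0.25 without JNK_WT replicate 1. Tbx3 was near the minimum for testing, at 0.0656 and 1.73 FPKM in JNK_WT and 1.76 and 0.919 FPKM in JNK_KO lines.

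Genes that p21 represses through the DREAM complex were also compared. Of these 16 cell cycle genes none exceeded 0.75. Their groups did not overlap for 5 (31.2%, beside 35.0% of all tested genes), with 4 higher and 1 lower in JNK_KO lines, and the median difference was 0.19. The widest differences were Foxm1 (-0.48), a mitotic transcription factor, cyclin A2 gene Ccna2 (0.46) and Cdc20 (0.40), an activator of the anaphase-promoting complex. JNK_KO replicate 1 held the highest value for 12 of 16 and JNK_WT replicate 1 for the other 4. The median deviation from the 4-library mean was 0.09 for JNK_WT replicate 1, -0.28 for JNK_WT replicate 2, 0.34 for JNK_KO replicate 1 and -0.14 for JNK_KO replicate 3. The median difference was -0.02 without JNK_KO replicate 1, 0.00 without JNK_WT replicate 2, 0.39 without JNK_WT replicate 1 and 0.43 without JNK_KO replicate 3. Whether these levels follow Cdkn1a was not tested.

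The targeted kinases and cell identity frame these values. Mapk8 was at 23.9 and 19.1 FPKM in JNK_WT and 4.30 and 4.27 FPKM in JNK_KO lines, Mapk9 at 29.7 and 24.3 against 12.6 and 8.66 FPKM, and Mapk10, the neuronal JNK3 gene, at no more than 0.043 FPKM. All 4 luminal epithelial markers (Krt8, Krt18, Epcam, Cdh1) were expressed, summing to 2992 and 2061 FPKM in JNK_WT and 872 and 1728 FPKM in JNK_KO lines. Krt8 and Epcam were lower in both JNK_KO lines. The groups of Krt18 and Cdh1 overlapped, and Cdh1 was highest in JNK_KO replicate 3, at 127 FPKM. Of 3 fibroblast markers, Dcn and Pdgfra were over 1 FPKM in JNK_KO lines alone, with sums of 0.952 to 1.28 FPKM in JNK_WT and 105 to 170 FPKM in JNK_KO lines, while Col1a1 was under 1 FPKM in every line. No leukocyte, endothelial or adipocyte marker reached 1 FPKM. The groups of Trp53, Cdkn1a, Sesn2 and Trp53inp1, and of targets such as Fas, Shisa5 and Gadd45a, did not overlap. The same held for 35.0% of all tested genes and 28.9% of the further targets. The luminal and fibroblast sums also separated the groups, and the part of cell identity in these gene levels was not tested.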

How the data were processed

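RNA from 4 mammary tumor cell lines, 2 JNK_WT and 2 JNK_KO, was analysed, with groups and replicate numbers taken from the labels. The authors sampled each library to a similar read number, aligned reads to mm10 with TopHat2 2.0.14 and Bowtie2, and estimated expression with Cufflinks 2.2.1. The deposited values are FPKM, 1 for each gene in each library, and replicates were kept apart. Cufflinks divides reads among overlapping transcripts by an estimate, and the gene annotation was not given in the sources used here. Of 38741 rows, 27 with symbols turned into dates and 1 without a value were left out.

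Genes with at least 1 FPKM in at least 2 libraries were tested on log2(FPKM + 1), which understates differences of low genes, with limma 3.58.1 under R 4.3.3, using an intensity trend. Two-sided p-values of the 12998 genes were adjusted after Benjamini and Hochberg. The thresholds for a call were those of the study. Simulated data, with variances shuffled over genes, were used to check the estimated size of planted differences, and no power is given here. The 10 members, the role lists and the cell type markers were chosen with earlier results of these data known. Named are all members, the 3 tested genes of largest absolute difference in each role list, all Cdkn2a neighbors and JNK genes, and genes next to a member. Bax, Bid, Siva1, Phlda3, the basal markers and the other markers named were chosen after their values were seen. Symbols were matched to GENCODE M21 on GRCm38, the assembly that mm10 denotes, and to RefSeq promoters. The depth of each library was not used directly. A single read was taken as worth 0.0172 to 0.0238 FPKM on a transcript of 1 kilobase. This was the median of FPKM times length in kilobases within a fixed window of 0.012 to 0.03, which bounds the result. Read numbers are therefore approximate, and no count model was fitted. The study's own test needs alignments and was not run. Other pseudocounts, filters, scalings, variance models and fits without each library were tried. Python 3.11.15, pandas 2.3.3 and matplotlib 3.10.9 were used.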

Additional observations from a re-analysis of the deposited data

How the results depend on the processing

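Under pseudocounts of 0.1 and 0.5, no filter, a filter at a mean of 5 FPKM, upper-quartile scaling and quantile normalization, all 53 member differences kept their direction, with 0.790 the smallest limma adjusted p-value. The mean filter removed Trp53. With 1 library left out, 6 of 36 values in 5 of 9 members turned direction. The ranges over these omissions were -0.303 to 0.286 for Ccng1 (above 0 without JNK_WT replicate 1), -0.469 to 0.006 for Mdm2 (above 0 without JNK_WT replicate 2), -0.405 to 0.789 for Cdkn2a (below 0 without JNK_WT replicate 2, and -0.163 without JNK_KO replicate 1), -0.017 to 0.380 for Mdm4 (below 0 without JNK_KO replicate 3) and -0.006 to 0.207 for Zmat3 (below 0 without JNK_KO replicate 1).

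The count of called genes, 0 at first, was 10 and 14 at pseudocounts of 0.1 and 0.5, 14 without the intensity trend and 25 at an adjusted p-value threshold of 0.1, and no member was among these calls, its smallest limma adjusted p-value without the trend being 0.816. Of the further p53 targets, Fas (0.0935) was among the 25. Both pseudocounts gave 2 members over 0.75, Trp53 (0.93 and 0.82) joining Cdkn1a. With 1 library left out, 1 to 2 members and 2389 to 3140 genes were over 0.75, and the groups did not overlap for 5 to 8 members and 61.0% to 72.1% of genes, since 1 line then stands for a group. The median difference of the members was 0.026 under quantile normalization and -0.016 to 0.036 with 1 library left out. The same omissions gave medians of -0.16 to 0.11 for the other p53 targets, -0.21 to -0.04 for the regulators and -0.02 to 0.43 for the DREAM genes. No paired analysis was possible because replicate number 1 alone occurs in both groups and is tied to no litter or day. With 2 lines per group, a member that was not called is not shown to be equal in both genotypes.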
